A study of Zea mays with 303 samples.

Results

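SGS3 and the 6 21PHAS precursor rows were followed through single cells of the maize anther, the pollen-forming organ, at early meiosis. The members were the row SGS3 and every row whose name contains 21PHAS, which gave 7 of the 17140 rows of the count table. The 6 21PHAS rows are 21PHAS_NO122, 21PHAS_NO158, 21PHAS_NO206, 21PHAS_NO275, 21PHAS_NO350 and 21PHAS_NO532. The sources used here do not give their genome positions or sequences, and they carry no gene name besides these numbers. SGS3 matched 1 entry of the RefSeq gene table, whose other names are lbl1 (leafbladeless1), rgd1 (ragged seedling1) and SGS3.

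PHAS loci are transcribed into long RNAs that do not code for protein and that are cut into phased small interfering RNAs. In anthers of maize and other grasses, microRNAs of the miR2118 family cleave the precursors of the premeiotic class, to which the 21PHAS loci belong. SGS3 is an RNA-binding protein that stabilises the cleaved precursor so that an RNA-dependent RNA polymerase can make it double-stranded, after which a Dicer-like enzyme cuts it into phased pieces. The same protein serves trans-acting small interfering RNAs, and maize plants that lack leafbladeless1 have leaves with altered polarity.

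All cells formed 1 group: cells of anthers of the maize inbred line W23, which carried bz2, grown in a greenhouse, fixed in Farmer's solution, released with wall-digesting enzymes and sorted. No treatment, mutant comparison, plant or anther was labelled, so there were no replicates, no p-value is given, and the intervals below are exact 95% intervals that cover counting error only. Libraries followed a modified form of CEL-Seq2, an assay that tags the RNA of each cell with a cell barcode and every captured copy with a unique molecular identifier (UMI), so that a UMI stands for 1 captured copy. The titles place 55, 78, 79 and 91 cells in the library pools with index numbers 6, 11, 28 and 29.

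A cell held a median of 1780 UMIs and at most 9934, and the pool medians were 2942, 2803, 1162 and 1746 UMIs for pools 6, 11, 28 and 29. All pools drew on the same 96 barcode numbers, and 91 of these occurred in 2 or more pools. No cell type was labelled. Marker lists could be read by symbol only in part: RAD51B was the single meiocyte marker found (6 UMIs), and the receptor kinase gene CR4 the single epidermis marker (12 UMIs). The tapetum and vascular lists matched no row by symbol, and the endothecium list matched CAB1, PSAH and RCA1. The cell types of the cells were therefore not read from these lists.

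The 21PHAS precursors were rare and were concentrated in very few cells. Together the 6 rows had 36 UMIs among 800166, a level of 45.0 CPM (UMIs per 1000000 UMIs; interval 31.5 to 62.3), against 405 CPM (362 to 451) for SGS3. A 21PHAS UMI was present in 13 cells, or 4.29% of all cells (2.30% to 7.23%). 21PHAS_NO350 was the most abundant row, with 18 UMIs in 5 cells and 22.5 CPM (13.3 to 35.6). The other 5 rows had 3 or 4 UMIs in 3 cells each. These numbers place 5 of the 6 rows at the edge of what the table holds, since every row in it had a UMI in at least 3 cells.

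21PHAS_NO350 was carried mainly by 1 cell. The cell with barcode 6 of pool 11 held 12 of its 18 UMIs, a share of 66.7%. Barcode 61 of pool 6 held 3 UMIs, and barcode 93 of pool 6 and barcodes 3 and 34 of pool 11 held 1 UMI each. Among the 885 rows seen in exactly 5 cells the median was 5 UMIs, and 2 rows, 21PHAS_NO350 included, reached 18 UMIs or more.

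The remaining rows differed in which cells they shared. 21PHAS_NO206 had 2, 1 and 1 UMIs in pool 11 barcode 3, pool 11 barcode 6 and pool 6 barcode 61. 21PHAS_NO275 had 2 UMIs in pool 11 barcode 6 and 1 UMI each in pool 11 barcode 26 and pool 6 barcode 61. 21PHAS_NO206 thus occurred only in cells that also held 21PHAS_NO350. 21PHAS_NO275 occurred in 2 such cells and in pool 11 barcode 26, which held no UMI of 21PHAS_NO350. 21PHAS_NO158 had 2 UMIs in pool 11 barcode 3 and 1 UMI each in barcodes 9 and 37 of pool 11, and 21PHAS_NO122 had 1 UMI each in barcodes 6, 12 and 19 of pool 11. 21PHAS_NO532 had 1 UMI each in barcodes 5 and 12 of pool 6 and barcode 32 of pool 29, and it met no other 21PHAS row in any cell.

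Most 21PHAS UMIs came from 3 cells that held several rows at once. These cells had UMIs of 4 rows (pool 11 barcode 6, 16 UMIs) or 3 rows (pool 11 barcode 3 and pool 6 barcode 61, 5 UMIs each), and together they held 26 of the 36 UMIs, or 72.2%. 21PHAS_NO206 and 21PHAS_NO350 were both present in all 3. The other 10 cells held a single 21PHAS UMI each. Of the 15 pairs of rows, 8 shared at least 1 cell. The summed 21PHAS level reached 5056 CPM in pool 6 barcode 61, a shallow cell of 989 UMIs, 2365 CPM in pool 11 barcode 6 (6765 UMIs) and 845 CPM in pool 11 barcode 3 (5917 UMIs). In the cells with 1 UMI it lay between 100.7 and 538 CPM, which is the level that 1 copy gives at their depth.

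**Figure D1:**
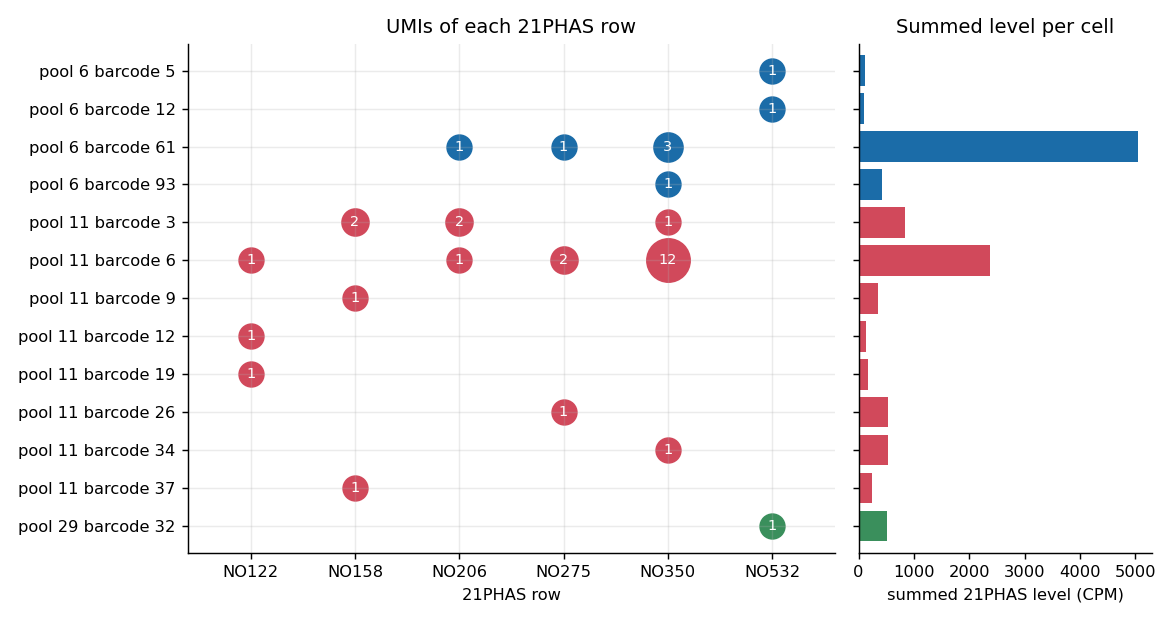
UMIs of each 21PHAS row (left, number and dot size) and the summed 21PHAS level in CPM (right) in the 13 cells that held any, coloured by library pool. Pool 6 barcode 61, pool 11 barcode 3 and pool 11 barcode 6 hold 3 or 4 rows each, and the other 10 cells hold 1 UMI each.

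The pools differed in 21PHAS level. Pool 11 had 27 UMIs in 8 of 78 cells, a level of 101.9 CPM (67.2 to 148.3). Pool 6 had 8 UMIs in 4 of 55 cells and 41.3 CPM (17.8 to 81.4), and pool 29 had 1 UMI in 91 cells and 4.51 CPM (0.114 to 25.1). Pool 28 had none in 79 cells, which at 3 counts of the total allows up to 25.1 CPM and a share of up to 3.80% of cells. Of the 13 cells, 12 were therefore in pools 6 and 11. Thinned to 800 UMIs per cell, and with the 62 cells below that depth left out, the expected share of cells with a 21PHAS UMI was 3.47%, 4.10%, 0% and 0.570% in pools 6, 11, 28 and 29, against 9.09%, 11.1%, 0% and 1.37% of the same cells before thinning. Equal depth thus left the order of the pools as it was.

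A few cells set the size of that difference. Without pool 11 barcode 6 the level of pool 11 was 42.6 CPM (21.3 to 76.3), close to that of pool 6. Without the 3 cells with several rows, pools 6 and 11 stood at 15.6 CPM (3.21 to 45.5) and 23.8 CPM (8.73 to 51.8), and these intervals overlap those of pools 28 and 29. The cells left out were picked by their own 21PHAS UMIs and lay in pools 6 and 11 alone. Leaving them out could therefore only lower those pools, so the overlap does not show that the pools were alike. The labels tell the pools apart by index number alone, so pool and any difference in anthers or handling cannot be told apart. Barcode 12 was the single barcode number with a 21PHAS UMI in more than 1 pool, and there the rows differed (21PHAS_NO122 in pool 11, 21PHAS_NO532 in pool 6). In pool 11 all 27 UMIs lay in the 41 cells with barcodes 1 to 48, among 161672 UMIs, against none in the 37 cells with barcodes 49 to 96, among 103191 UMIs, which allows up to 29.1 CPM. In pool 6 there were 2 UMIs in 2 cells with barcodes 1 to 48, against 6 in 2 cells with barcodes 49 to 96. Of these 6 UMIs, 5 were in barcode 61.

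SGS3 was a broadly present transcript in the same cells. It had 324 UMIs and was present in 53.8% of cells (48.0% to 59.5%), and ranked 240th among the 17140 rows. The levels were 501 CPM (406 to 611) in pool 6, 362 CPM (293.6 to 443) in pool 11, 426 CPM (317 to 560) in pool 28 and 361 CPM (285.9 to 449) in pool 29. Pool 6 was highest, and its interval overlapped those of the other pools. When the 20 most abundant rows were left out of the total the levels were 630, 469, 476 and 401 CPM in pools 6, 11, 28 and 29, and the interval of pool 6 (511 to 769) then lay above that of pool 29 (318 to 499.7). Among the cells with at least 800 UMIs, the level of a cell ran from 0 to 2315 CPM with a median of 327 CPM. A total of 81 cells had 1 SGS3 UMI, 42 had 2, and the highest number was 7, in 2 cells.

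SGS3 was detected in more cells at greater depth, at levels that overlapped in all classes of depth. In 4 classes of cells from shallow to deep, with 77, 75, 75 and 76 cells, SGS3 was detected in 20.8%, 44.0%, 61.3% and 89.5% of cells. The levels in these classes were 410, 396, 419 and 400 CPM, all within each other's intervals. The 21PHAS rows were detected in 0%, 1.33%, 6.67% and 9.21% of cells, with 0, 5, 5 and 26 UMIs. The first class, with cells of at most 932 UMIs, allows a 21PHAS level of up to 68.4 CPM.

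**Figure D2:**
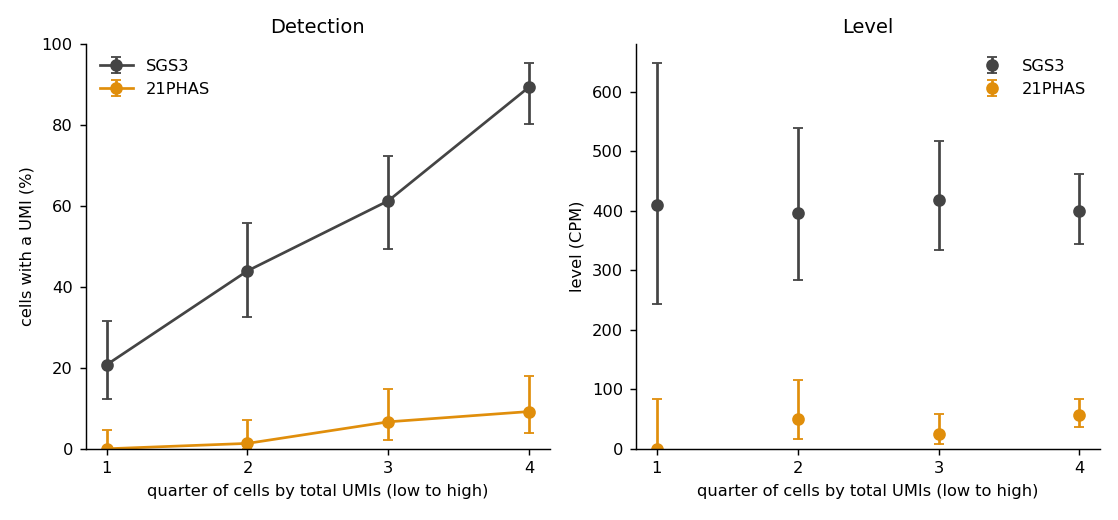
Share of cells with a UMI (left, percent) and level (right, CPM) of SGS3 and of the summed 21PHAS rows in 4 classes of cells ordered by total UMIs, with exact 95% intervals as bars. SGS3 detection climbs to 89.5% in the deepest class, while its level stays between 396 and 419 CPM.

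SGS3 UMIs were spread over cells close to what counting error at each cell's depth gives. A dispersion index, the squared deviation from the number expected at a cell's depth and its pool's mean level, divided by that number and averaged, is 1 for pure counting error. It was 1.07 for SGS3, against a median of 1.29 over the 1286 rows with at least 100 UMIs, of which 14.2% had a lower value. The cells without an SGS3 UMI were 140 in number, and 140.6 were expected at the pool levels. The summed 21PHAS rows had an index of 3.81, a value that a few cells with many copies can give at so low a level.

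Cells with a 21PHAS UMI had an SGS3 level that counting error did not separate from that of the other cells of the same pools. The 13 cells lay in pools 6, 11 and 29, which held 51, 70 and 90 other cells. SGS3 stood at 532 CPM (364 to 751) in the 13 cells, with 32 UMIs, against 389 CPM (341 to 441) in the other cells. The log2 ratio, with 10 CPM added to both sides, was 0.44, and the interval of the ratio without that addition ran from -0.13 to 0.99 on the log2 scale. Within pools the log2 ratio was 0.05 (-1.002 to 0.96) in pool 6, at 517 against 499 CPM, and 0.68 (-0.09 to 1.42) in pool 11, at 540 against 334 CPM. In pool 29 it rested on 1 cell.

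Cell by cell the groups overlapped. In the cells with several 21PHAS rows SGS3 had 2 UMIs in pool 6 barcode 61 (2022 CPM), 4 in pool 11 barcode 6 (591 CPM) and 2 in pool 11 barcode 3 (338 CPM). In the other holding cells it ranged from 0 to 1076 CPM, with a median of 591 CPM over all 13. The other cells ranged from 0 to 4484 CPM with a median of 230.8 CPM, and the highest was a cell of 446 UMIs. Within the depth range of the holding cells, the other cells reached 1884 CPM. An SGS3 UMI was present in 11 of the 13 cells (84.6%, 54.6% to 98.1%), against 56.9% of the other cells (49.9% to 63.7%). The cells also differed in depth, with medians of 4123 UMIs in the holding cells and 2387 UMIs in the other cells. Thinned to 800 UMIs the expected shares were 39.4% and 26.1%. Of the other cells within the depth range of the holding cells, 67.9% (60.1% to 75.0%) had an SGS3 UMI, and their median was 347 CPM. Against these cells the SGS3 log2 ratio was 0.44.

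**Figure D3:**
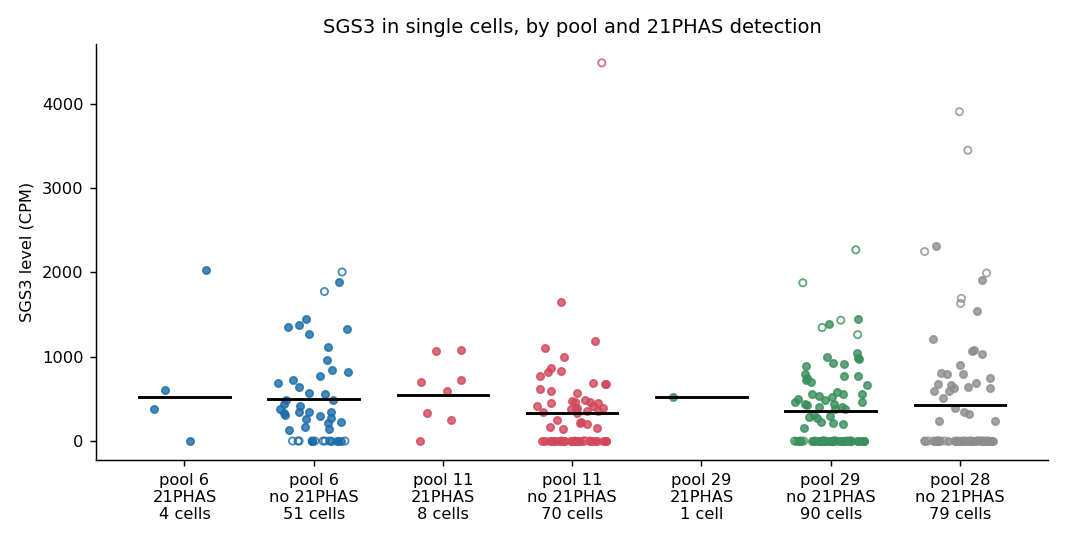
SGS3 level in CPM of every cell, by pool and by whether the cell held a 21PHAS UMI. Open circles are cells below 800 UMIs, and black lines are levels of summed UMIs. The cells with a 21PHAS UMI lie within the range of the other cells in pools 11 and 29, and in pool 6 the highest of them stands at 2022 CPM, against 2004 CPM for the highest other cell.

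SGS3 was then set among all rows in the same comparison. Of the 3171 rows with at least 50 UMIs, 5.11% were at least 2-fold higher in the holding cells and 358 (11.3%) at least 2-fold lower, and the median log2 ratio was -0.03. SGS3 was the single member with enough UMIs to enter, and it was not among them. Its log2 ratio of 0.44 was above that of 76.7% of the rows. The 21PHAS rows have no fold here, since their UMIs chose the cells. The ratios within pools 6 and 11 both had the direction of the summed ratio for 39.6% of the rows. The summed ratios were not adjusted for pool, and 90 of the other cells were from pool 29, against 1 holding cell. Differences between pools therefore enter the summed ratios and their intervals.

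NIP1-1, an aquaporin-family channel gene of the nodulin-26-like class, was the named gene with the largest positive ratio among those that kept their direction in both pools. It stood at 498 CPM (336 to 712) in the holding cells, against 153.2 CPM (123.9 to 187.2) in the others. This is a log2 ratio of 1.64 (1.06 to 2.31). The log2 ratio was 2.48 in pool 6 and 1.42 in pool 11. A NIP1-1 UMI was present in 7 of 13 holding cells, against 35 of the other cells (16.6%). Its UMIs were 11 in pool 6 barcode 5, 6 in pool 11 barcode 3, 5 in pool 11 barcode 6, 3 each in barcodes 19 and 37 of pool 11, and 1 each in pool 11 barcode 26 and pool 6 barcode 12. Without pool 6 barcode 5 the log2 ratio was 1.20. Thinned to 800 UMIs the expected shares of cells with a NIP1-1 UMI were 23.7% in the holding cells and 9.10% in the other cells.

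Other named genes followed with smaller or less certain ratios. DER1.1, a gene for a Derlin of endoplasmic reticulum quality control, had 7 UMIs in the holding cells and a log2 ratio of 1.20 (-0.07 to 2.59). TBP2, a TATA-box binding protein gene, SODCC.2, a copper-zinc superoxide dismutase gene, and ABP4, an auxin-binding protein gene, had log2 ratios of 0.73, 0.36 and 0.18, and their intervals all included no difference. The row with the largest ratio, Zm00001d051056, had 62 of its 72 UMIs of the holding cells in pool 11 barcode 3. That row has no name in the files.

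PPDK2 and TIP1-1 were lower in the holding cells. PPDK2, pyruvate orthophosphate dikinase, had 2 UMIs and 33.2 CPM in the holding cells, against 235.4 CPM in the others, and a log2 ratio of -2.50 (-5.88 to -0.95). Within pools the PPDK2 values were -4.06 in pool 6 and -0.79 in pool 11. TIP1-1, a channel of the vacuolar membrane, stood at 132.9 against 490 CPM, a log2 ratio of -1.81 (-3.11 to -0.89). Within pools the TIP1-1 values were smaller, at -0.14 in pool 6 and -0.87 in pool 11. FEN1, a flap endonuclease of DNA replication and repair, and EZ1, a Polycomb histone methyltransferase, had 1 UMI each in the holding cells, and their intervals included no difference. ROA2 had none there, which allows up to 49.8 CPM, against 66.1 CPM in the other cells.

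**Figure D4:**
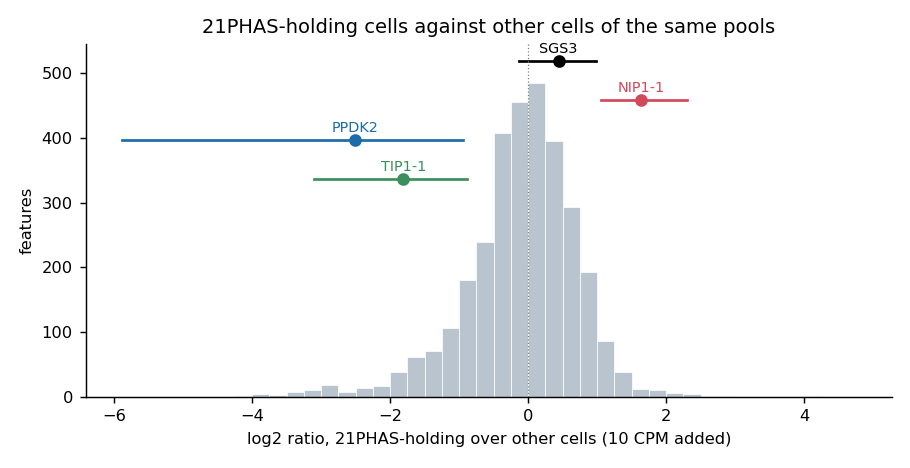
Histogram of the log2 ratio of the 13 cells with a 21PHAS UMI over the other cells of the same pools, for the 3171 rows with at least 50 UMIs. Dots and bars mark SGS3, NIP1-1, PPDK2 and TIP1-1 with exact 95% intervals, and SGS3 at 0.44 lies in the body of the distribution.

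Photosynthesis transcripts were lower in sum in the holding cells of pool 11, and in pool 6 a single cell set the direction of the sum. In pool 11 the 24 plastid-encoded genes took 1.45% of the UMIs of the holding cells, against 4.70% in the other cells. This is a log2 ratio of -1.70 (-1.82 to -1.57). The median cell differed less, at 1.56% in the holding cells and 2.05% in the others, whose highest cell had 17.2%. The 8 holding cells had plastid-encoded shares of 0.710% to 1.94%, and 37 of the 70 other cells lay above that range. The 5 nuclear photosynthesis genes had a log2 ratio of -1.94 in pool 11, at 405 against 1580 CPM. The median cell went the other way, at 0.0430% of UMIs in the holding cells and 0.00789% in the others, and 22 of the 70 other cells lay above every holding cell. In pool 6 both groups were higher in sum, with log2 ratios of 0.69 and 0.90, but 1 cell, barcode 12, held 961 of the 1187 plastid-encoded UMIs and all 29 nuclear photosynthesis UMIs of the holding cells there. The median plastid-encoded share of a cell there was 2.15% in the 4 holding cells and 1.63% in the others, whose highest cell had 11.1%. Leaving barcode 12 out of the holding cells alone gave a plastid-encoded log2 ratio of -0.80 in pool 6. The remaining 3 holding cells of pool 6 had no nuclear photosynthesis UMI, which allows up to 264.8 CPM, against 725 CPM in the other cells of that pool.

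The list counts over all 3 pools, not adjusted for pool, were as follows. Of the 4 nuclear photosynthesis genes with at least 50 UMIs, 3 were at least 2-fold lower and none higher, with a median log2 ratio of -1.36 against -0.03 over all rows. None of the 24 plastid-encoded genes passed 2-fold, with a median of -0.18. Of 6 aquaporin-family genes, NIP1-1 was higher and 4 were lower, with a median of -1.12, beside 11.3% of all rows lower. Summed over all 10 aquaporin-family rows, the log2 ratio was 0.11 in pool 6 and 0.18 in pool 11, against -0.40 over all 3 pools. None of 5 cytoskeleton genes passed 2-fold, with a median of -0.21. GAPC2, a glycolytic dehydrogenase gene, had -1.11 over all 3 pools, with 0.19 in pool 6 and -1.35 in pool 11. GAPC3 of the same family had 0.57, with -2.45 in pool 6 and 1.45 in pool 11, and -0.17 over all 3 pools without pool 11 barcode 12. C2, the chalcone synthase gene of flavonoid synthesis, had 1.13, a value that came from the 88 UMIs of pool 6 barcode 5, and -1.89 without that cell. The small RNA list matched the 7 members and no other row.

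The 21PHAS-holding cells were thus mixed in their other transcripts. Pool 6 barcode 5 was rich in C2, with 10963 CPM, and pool 6 barcode 12 in plastid-encoded transcripts, with 96738 CPM, and both held 1 UMI of 21PHAS_NO532. Pool 11 barcode 12 had 18 GAPC3 UMIs. The 3 cells with several 21PHAS rows held between 7098 and 23256 plastid-encoded CPM and at most 3 GAPC3 UMIs, with 0 or 1 UMI each of C2 and of CAB1, RBCS and PSAH together.

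Setting cells apart by other transcripts showed lower SGS3 levels, counted over all UMIs, where photosynthesis transcripts were high. In each pool the upper 20% of cells were taken by their share of a gene group and set against the rest. By plastid-encoded genes, SGS3 stood at 255.7 CPM in the 62 upper cells, against 456 CPM in the rest, a log2 ratio of -0.81 (-1.29 to -0.40), and it was lower in all 4 pools. By the nuclear photosynthesis genes CAB1, RBCS and PSAH, SGS3 stood at 300.97 CPM in the 62 upper cells, against 442 CPM in the rest, a log2 ratio of -0.54 (-0.97 to -0.15), again lower in all 4 pools. The largest within-pool values were those of pool 28, at -2.31 and -2.92. That pool held the fewest SGS3 UMIs, 51 in 79 cells, so these values rest on few UMIs, and no interval was computed for them.

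The cells also differed in composition. The 20 most abundant rows took 30.5% of the UMIs of the plastid-rich cells, against 12.3% in the rest. Counted per 1000000 UMIs outside those 20 rows, SGS3 had a log2 ratio of -0.49 (-0.95 to -0.06) by plastid-encoded genes, lower in 4 of 4 pools. By nuclear photosynthesis genes it was -0.23 (-0.66 to 0.17), lower in 2 of 4 pools. With the plastid-encoded genes left out as well, the value by plastid-encoded genes was -0.42 (-0.89 to 0.003), lower in 3 of 4 pools. By nuclear photosynthesis genes it was -0.17 (-0.59 to 0.23), lower in 2 of 4 pools. Both intervals then included no difference.

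The upper 20% by C2, GAPC3 and the aquaporin family differed less in SGS3. SGS3 stood at 451 CPM against 390 CPM by C2, 372 CPM against 417 CPM by GAPC3, and 443 CPM against 395 CPM by aquaporins. All 3 intervals of the ratio included no difference. The 21PHAS UMIs were 1 of 36 in the upper cells by nuclear photosynthesis genes, at 4.78 CPM against 59.2 CPM in the rest, and 1 of 36 by plastid-encoded genes. Their level was lower in the upper cells by the other groups too. It was 10.2 against 56.2 CPM by C2, 23.0 against 53.2 CPM by GAPC3 and 18.2 against 51.9 CPM by aquaporins. The interval of the ratio included no difference for GAPC3 and aquaporins. These intervals take each UMI as independent, but 26 of the 36 UMIs came from 3 cells, which were among the rest for every group. All 5 intervals are therefore too narrow, and the lower levels largely reflect where those 3 cells fell. Differences between the groups were not tested. Cells with a 21PHAS UMI were 1 of 62 (1.61%) against 12 (4.98% of the rest) for both photosynthesis groups. Median depths were 2439 against 1689 UMIs for the nuclear genes and 2166 against 1759 UMIs for the plastid-encoded genes. For the other groups the shares of cells were 3.45% against 4.49% by C2, 8.06% against 3.32% by GAPC3 and 4.84% against 4.15% by aquaporins.

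**Figure D5:**
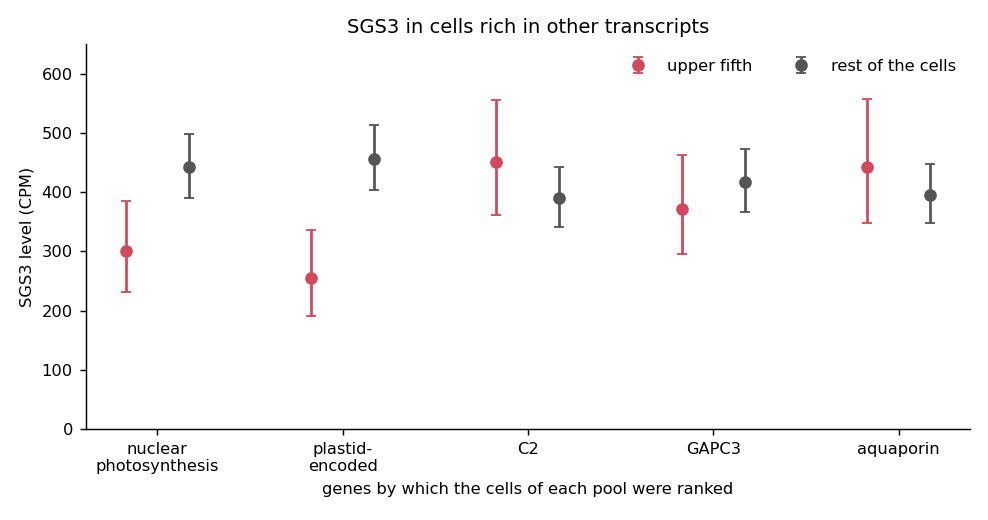
SGS3 level in CPM, with exact 95% intervals, in the upper 20% of cells of each pool by the share of 5 gene groups and in the rest of the cells. The interval of the upper cells lies below that of the rest for the plastid-encoded and nuclear photosynthesis genes, at 255.7 against 456 CPM and 300.97 against 442 CPM.

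All rows had a low likeness to SGS3. Likeness was measured as Pearson's r of log2(CPM + 100) over the cells with at least 800 UMIs, after each pool's mean had been subtracted, for 1285 rows with at least 100 UMIs. The 5 most alike rows, none of which has a name in the files, had r between 0.25 and 0.28. The most alike named genes were GAPC2 (0.18), ATPA (0.16) and SODCC.2 (0.13), against a median of 0.05 over all rows. SGS3 itself had an r of 0.20 with log2 depth, and depth is shared by all rows of a cell. Because SGS3 counts varied little beyond counting error (index 1.07), a high r was hardly possible for any row. The low values therefore do not show that no gene varied with SGS3.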

How the data were processed

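The deposited values are raw UMI counts, 1 whole number for each row in each cell. HISAT2, a read aligner, and the maize build B73 RefGen_v4 are named, per the submitters' processing notes. For the annotation, the origin of the 21PHAS rows, the UMI counter and cell filters the entry is: not given in the sources used here. No cell was left out (303 in all), and no doublet caller was run. The gene table belongs to another assembly, Zm-B73-REFERENCE-NAM-5.0, and served for names alone; it matched none of the 16854 Zm00001d and 131 GRMZM rows.

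Counts were summed over cells and given as CPM with exact Poisson intervals; shares have Clopper-Pearson intervals (scipy 1.17.1, Python 3.11.15). Ratios of levels have exact intervals from the split of the UMIs. Thinned shares are exact hypergeometric expectations. Functions were tested on simulated data. The named genes were, among rows with at least 50 UMIs that kept their direction in pools 6 and 11, the 5 named genes with the largest and the 5 with the smallest ratio; of unnamed rows only the first is printed. Members, lists and rules were chosen with earlier results of these data known. The denominators of the SGS3 ratios, the gene lists by pool and the omission of single cells were chosen after seeing the data.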

Additional observations from a re-analysis of the deposited data

How the results depend on the processing

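The SGS3 log2 ratio of the holding cells stayed positive and inside its interval under the alternatives that could move it, from 0.29 to 0.71 (leaving out pool 28, which holds none of the cells compared, could not); leaving out each of the 13 holding cells in turn gave 0.37 to 0.55. The summed 21PHAS level (45.0 CPM) was 16.8 CPM without pool 11 and, chosen after seeing the data, 25.2 CPM without the cell with the most 21PHAS UMIs and 12.7 CPM without the 3 cells with several rows; the other 6 alternatives gave values inside the interval. The share of cells with a 21PHAS UMI (4.29%) was 2.22% without pool 11, 2.03% thinned to 800 UMIs and 1.32% thinned to 500 UMIs. The share with an SGS3 UMI (53.8%) was 59.9% in cells with at least 500 rows detected, 27.1% thinned to 800 UMIs and 18.3% thinned to 500 UMIs. The SGS3 level (405 CPM) was 487 CPM with the 20 most abundant rows left out of the total. The share of tested rows at least 2-fold higher (5.11%) was 7.81% with a minimum of 20 UMIs (613 rows), 3.03% with a minimum of 100 UMIs (39 rows), 11.1% without pool 6 (353 rows) and 8.29% without pool 11. These shares stand for the planned count, whose change by more than 1.5 times decided which are given. The cause was not tested beyond these constructions. Of the 6 21PHAS rows, 5 rest on 3 or 4 UMIs. No paired analysis was possible because the labels give 1 group.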

Other observations

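The 3 cells with UMIs of several 21PHAS rows also shared a rare row outside the members, found by looking for rows present in all 3 after their values were seen. Of the rows with a UMI in all 3, the row seen in the fewest cells without a 21PHAS UMI, apart from the members, was Zm00001d037550, which has no name in the files. It had 21 UMIs in pool 11 barcode 3, 6 in pool 11 barcode 6 and 1 in pool 6 barcode 61, and 1 each in pool 11 barcode 9 and pool 6 barcode 93, which held a single 21PHAS UMI. It was thus present in 5 of 13 cells with a 21PHAS UMI (38.5%, 13.9% to 68.4%), against 3 of 290 cells without one (1.03%, 0.214% to 2.99%). Those 3 cells were deep, with 4078 to 4415 UMIs, and all 8 cells with this row were in pools 6 and 11. These pools held 12 of the 13 cells with a 21PHAS UMI, but only 51 and 70 of the 290 cells without one. The difference between pools therefore enters this contrast. With 36 UMIs in all it was too low to enter the ratios above. Because the row was picked for this pattern, its values are a description of these cells and no support for a shared kind of cell.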
